A study of Homo sapiens with 6 samples.

Results

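A transcript that carries the biotype nonsense_mediated_decay in the GENCODE annotation has a reading frame that ends well before the last junction between its exons. Such transcripts were selected from a table of 207167 human transcripts when their mean level over 6 RNA-seq libraries was at least 1 RPKM (reads per kilobase of transcript, scaled to the size of the library). The rule kept 4210 of the 13630 transcripts with this biotype, and they belong to 2926 genes. They are called NMD-annotated transcripts here, since the biotype describes their structure and not their measured decay. The level chose them, so their levels are a description. At the edge of the rule, the transcript of RBMS2 with a mean of 0.999 RPKM was left out and the transcript of PHC3 with a mean of 1.0001 RPKM was kept.

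The study compared HEK293 cells, an embryonic kidney line of human origin, with and without DIS3L2 D391N, a form of the 3′ to 5′ exoribonuclease DIS3L2 mutated in its catalytic site. D391N was expressed with a C-terminal Flag tag from a doxycycline-inducible line made in HEK293T-Rex cells and induced for a day, and the controls were HEK293T-Rex FlipIn cells. Each condition has 3 libraries of total RNA depleted of ribosomal RNA. All D391N libraries come from 1 line, so the line and the construct cannot be told apart, the endogenous wild-type gene was still present, and the sources used here do not say whether the controls received doxycycline.

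Nonsense-mediated decay is a cytoplasmic quality control of mRNA that depends on translation. A ribosome that stops upstream of an exon junction complex, the protein mark left on spliced junctions, recruits UPF1, and the transcript is then cut by SMG6 or stripped of its cap and tail and degraded. Many genes for splicing factors and ribosomal proteins make such transcripts by including a cassette exon with a stop codon or by keeping part of an intron, and this lets a cell lower the amount of protein made from a gene without changing its transcription. DIS3L2 degrades RNAs with an oligo(U) tail from their 3′ end.

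A stop well before the last exon junction marks these transcripts. The windows below print it for 5 genes described in the results, each beside the most abundant coding transcript of the gene that has an annotated stop. Each window is 30 bases of the transcript, 5′ to 3′, with the stop codon in capitals. Positions are those of the stop codon in GRCh37, in the GENCODE release 44 annotation mapped to that build.
HSP90AA1 ENST00000554401, NMD-annotated, minus strand, chr14:102551727-102551729, in exon 2 of 7: ttatcctacaccTGAaagaagaccaaactg
HSP90AA1 ENST00000216281, coding, minus strand, chr14:102548049-102548051, in exon 11 of 11: gaagaagtagacTAAtctctggctgaggga
RPS25 ENST00000532567, NMD-annotated, minus strand, chr11:118888647-118888649, in exon 2 of 5: ataagacctctcTGAaagagactagggaag
RPS25 ENST00000527673, coding, minus strand, chr11:118886555-118886557, in exon 4 of 5: ggtgaagatgcaTGAataggtccaaccagc
RPS15A ENST00000569365, NMD-annotated, minus strand, chr16:18799465-18799467, in exon 3 of 5: agttatcttttgTAGgttacattggcgaat
RPS15A ENST00000563390, coding, minus strand, chr16:18794331-18794333, in exon 5 of 5: ggattctttttcTAGggatgtaatacatat
EEF1B2 ENST00000455150, NMD-annotated, plus strand, chr2:207026081-207026083, in exon 3 of 6: gcctgccaggagTGAagaaagctttgggca
EEF1B2 ENST00000236957, coding, plus strand, chr2:207027605-207027607, in exon 7 of 7: ttcaacaagatcTAAaatccatcctggatc
UQCRH ENST00000489056, NMD-annotated, plus strand, chr1:46775904-46775906, in exon 3 of 4: gctagagctctgTGAtgagcgtgtatcctc
UQCRH ENST00000311672, coding, plus strand, chr1:46782254-46782256, in exon 4 of 4: aacaacttgaaaTAAatgtgtggacttaat

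In these windows the NMD-annotated transcript ended its frame 82 nt (UQCRH) to 915 nt (HSP90AA1) before its last exon junction, and the coding frame ended in the last exon in 4 of the 5 genes. The NMD-annotated HSP90AA1 frame spans 51 codons against 732 in the coding transcript, and that of RPS25 spans 39 codons against 125. The coding stop of RPS25 lies in the exon before the last, 4 nt from the junction. For SFPQ and DEK, described below but not printed, the NMD-annotated stop lies downstream of the coding stop chosen by the same rule. The NMD-annotated DEK frame spans 285 codons against 162, and that of SFPQ spans 223 against 707.

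Across the whole set, 4209 of the 4210 transcripts have an annotated stop codon. It lies at a median of 317 nt before the last junction (quartiles 164 and 647 nt), with a median of 3 junctions after it and a smallest distance of 50 nt, which is where the annotation sets its limit. A single junction follows the stop in 988 of them (23.5%). Among the protein_coding transcripts of the same genes that reached 1 RPKM, 93.1% of those with an annotated stop have no junction after it.

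**Figure D1:**
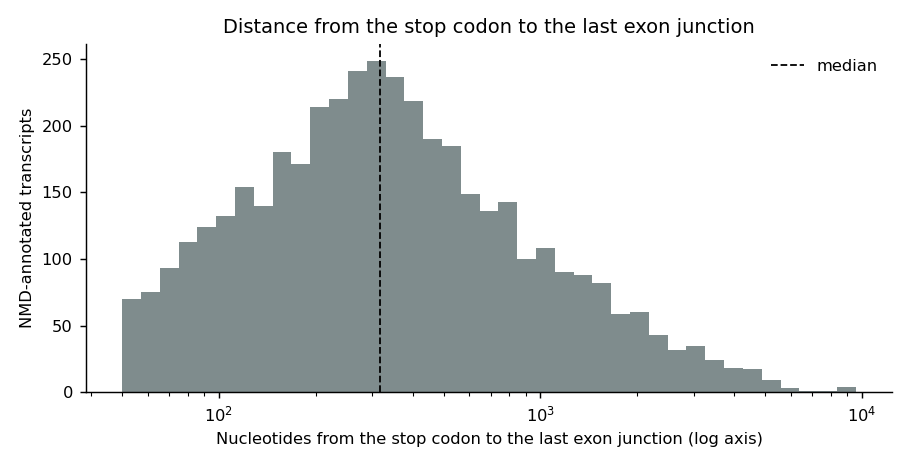
Distance in nucleotides from the stop codon to the last exon junction (log axis) for 4209 NMD-annotated transcripts; bars count transcripts and the dashed line is the median of 317 nt. The distances start at 50 nt and spread over more than a factor of 10, with the middle of the set between 164 and 647 nt.

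The stop was unlike that of the coding partners in other ways as well. The biotype that the rule used rests on a stop well before the last junction, so a stop of its own and a shorter frame largely follow from it. In 3927 transcripts (93.3%) no coding transcript listed for the gene, at any level, shares the stop. In 282 a coding transcript has the same stop codon, so that a later splice in the 3′ untranslated part sets the class. TGA ended 55.6% of the NMD-annotated frames and 44.7% of the coding ones, and TAA ended 23.9% and 33.8%. The NMD-annotated transcripts were also shorter, with a median length of 956 nt and a median annotated frame of 267 nt against 1705 and 854 nt. Incompletely annotated frames were not left out of these medians.

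Before the levels are compared, the libraries need a description. DIS3L2 itself was far above the controls in each D391N library, with summed levels of 369, 467 and 512 RPKM against 11.8, 12.9 and 14.6 RPKM (log2 fold change 5.08, two-sided exact permutation p = 0.10, the smallest that 3 against 3 libraries allow). The 3 NMD-annotated transcripts of DIS3L2 together were at 0.690, 0.706 and 1.17 RPKM in D391N and at 0.616, 1.0025 and 0.986 RPKM in the controls, and none of them reached the selection limit as a mean. The keratins KRT8 and KRT18 and vimentin, which HEK293 cells express, lay between 26.5 and 181 RPKM in all 6 libraries, and so did the neurofilament gene NEFL (26.9 to 88.0 RPKM), while the neurofilament gene NEFM lay between 0.241 and 0.638 RPKM. Genes of blood, liver and connective tissue cells (PTPRC, CD3E, ALB, COL1A2) and the glial gene GFAP lay between 0.0796 and 2.89 RPKM, where transcripts without reads are also listed above 0. The values come without read totals. The depth relative to the deepest library, derived from the posterior variance of the estimates, ranged from 0.674 to 1, and 2852 of the 4210 transcripts rest on a mean of at least 10 reads. In 1943 of them at least 1 library held fewer than 3 reads.

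The D391N libraries differed among themselves more than the controls did. Over the 4210 transcripts, 36.7% to 46.2% differed more than 2-fold between 2 D391N libraries, against 16.2% to 20.9% between 2 control libraries. D391N replicate 1 was closer to the controls (Pearson's r of the log2 level across these transcripts 0.784 to 0.818) than to D391N replicate 2 (0.587) or replicate 3 (0.676), although its DIS3L2 level matched its label. Among the coding transcripts of the same genes the corresponding shares were 32.2% to 40.3% and 13.7% to 17.8%. For the transcripts described below, the adjusted p of the fit without D391N replicate 1, which leaves 2 D391N libraries, is given where it passed 0.05. Replicate 1 is the D391N library nearest to the controls, so that p is not read as support. That fit keeps D391N replicate 2, the library furthest from the controls (Pearson's r 0.5025 to 0.516, against 0.650 to 0.686 for replicate 3). In the fits without any other single library, none of the named transcripts passed. The limma adjusted p there was 0.0961 to 0.297 for CAV1 and 0.116 to 0.313 for EEF1B2, for example.

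Above the limit of 1 RPKM, which both sets had to reach, the NMD-annotated transcripts had levels close to those of coding transcripts. That limit kept 30.9% of all listed NMD-annotated transcripts and 32.8% of all listed coding ones, and it bounds the levels and shares below. The median level of the NMD-annotated transcripts was 3.19 RPKM (quartiles 1.68 and 7.56), against 4.10 RPKM (1.999 and 10.3) for 7531 coding transcripts of the same genes. Of the 4210, 797 reached 10 RPKM and 44 reached 100 RPKM. They held a median of 11.9% of the summed level of their gene (quartiles 5.54% and 24.2%), close to the 10.6% held by a single coding transcript. In 885 of 4210 cases (21.0%) the NMD-annotated transcript was the most abundant one listed for its gene, and in 275 it held more than 50% of the gene. Most genes contributed 1 such transcript (2048 genes), and RBM39, a splicing factor, contributed 11.

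As a sum over genes, the share of this class overlapped between the conditions, although single genes differed. Summed over all 2926 genes, the NMD-annotated transcripts held 20.2%, 20.7% and 19.8% of the RPKM with D391N, against control values of 19.9%, 19.6% and 19.6%. The coding transcripts of these genes held 50.9%, 47.8% and 53.1% against 53.5%, 53.0% and 52.0%, and transcripts with a retained intron held 14.5% to 18.4% over the 6 libraries. The ranges of the conditions overlapped for all 3 classes. A further 2.89% to 3.66% of the RPKM of these genes lay in transcripts whose biotype was not found, which include the main listed transcript of ACTB.

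As a part of the whole library, the class took 3.18%, 6.39% and 4.56% of all RPKM in D391N and 2.95%, 3.13% and 2.93% in the controls. All D391N values lay above all control values. RNAs shorter than 200 nt took 20.3%, 4.53% and 19.3% of the RPKM in D391N and 24.0%, 25.4% and 20.4% in the controls, so the library with the fewest short RNAs had the largest share of the class. Without those short RNAs the shares were 3.99%, 6.70% and 5.65% against 3.88%, 4.20% and 3.69%, and the conditions overlapped. The part of the short RNAs in this difference was not tested.

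Among the 10 most abundant NMD-annotated transcripts, that of HSP90AA1, the inducible cytosolic Hsp90 chaperone, had the highest mean level, at 669.8, 2004 and 875 RPKM in D391N and 333, 296 and 361 RPKM in the controls. Its log2 fold change was 1.68 ± 0.45 (SE, n = 3 per condition; limma adjusted p = 0.170, and 0.0365 without D391N replicate 1). All 3 D391N libraries lay above the controls, replicate 2 furthest. The summed level of HSP90AA1 had a log2 fold change of 0.97 as well.

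**Figure D2:**
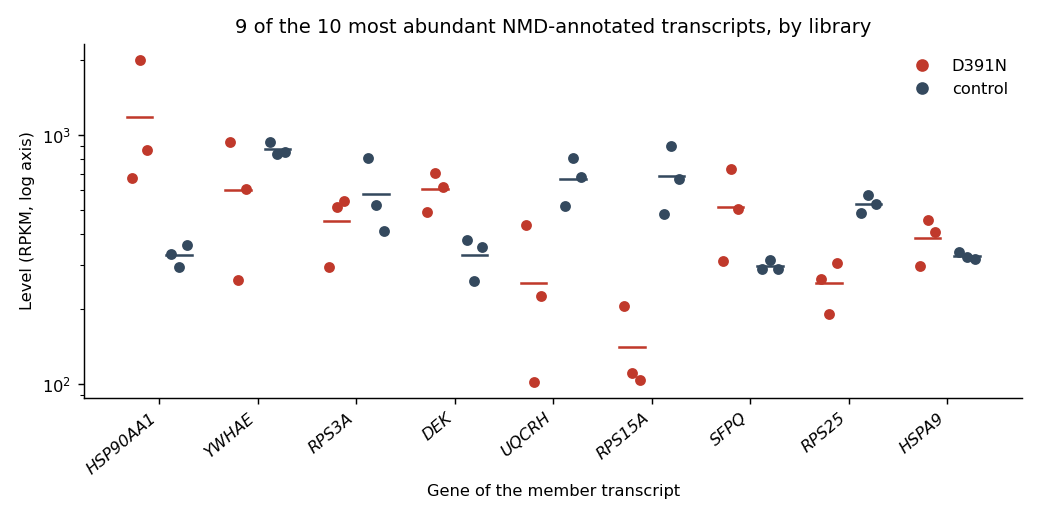
Level of 9 of the 10 most abundant NMD-annotated transcripts in each library, in RPKM on a log axis; points are libraries (D391N red, control dark) and short lines are means of 3. The D391N values of HSP90AA1 and DEK lie above those of the controls, and those of UQCRH, RPS15A and RPS25 lie below.

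DEK, a chromatin-bound DNA-folding protein, showed the same order with a smaller gap. Its NMD-annotated transcript was at 492, 707 and 619 RPKM in D391N and 377, 259 and 356 RPKM in the controls (log2 fold change 0.88 ± 0.30, limma adjusted p = 0.227). It held 62.5%, 64.2% and 61.9% of the gene in D391N and 52.2%, 43.2% and 52.8% in the controls, so the conditions did not overlap in share either. SFPQ, a splicing factor of paraspeckles, had 311, 734 and 502 RPKM against 288, 315 and 289 RPKM, and 1 D391N library lay within the control range. The most abundant coding SFPQ transcript was at 106, 149.6 and 127 RPKM against 111, 109 and 90.9 RPKM.

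UQCRH, the hinge subunit of respiratory complex III, lay in the other direction. Its NMD-annotated transcript was at 433, 102 and 226 RPKM in D391N and 519, 808 and 675 RPKM in the controls, with a log2 fold change of -1.61 ± 0.54 (limma adjusted p = 0.219, and 0.0349 without D391N replicate 1) and no overlap. The coding UQCRH transcript was at 229, 144 and 150.4 RPKM against 222, 127 and 119 RPKM. The share of the gene held by the NMD-annotated form was 63.4%, 37.2% and 58.0% in D391N and 67.5%, 84.2% and 82.5% in the controls. A second NMD-annotated UQCRH transcript, ENST00000496387, was also below the controls in each D391N library, at 4.08, 2.58 and 4.15 RPKM against 13.7, 11.9 and 11.6 RPKM.

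For another abundant member the D391N replicates disagreed too much for a direction to be read. YWHAE, a phosphoserine-binding adaptor, was at 935, 262 and 607 RPKM in D391N and 934, 841 and 855 RPKM in the controls. D391N replicate 1 lay barely above the control values, and the other D391N libraries lay below them. HSPA9, the mitochondrial chaperone of the same family as the cytosolic heat shock cognates, was at 297, 453 and 408 RPKM against 339, 323 and 317 RPKM, and its share of the gene stayed between 46.2% and 48.9% in all 6 libraries.

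Some genes were represented mostly by their NMD-annotated transcript in both conditions. RPS25, of the small ribosomal subunit, had 84.6%, 83.8% and 77.9% of its sum in this form in D391N and 88.7%, 91.5% and 92.7% in the controls. SNRNP27, a protein of the spliceosomal tri-snRNP, had between 80.2% and 90.1%, and PDIA3, a disulfide isomerase of the endoplasmic reticulum, between 66.3% and 93.2%. SLC25A4, the mitochondrial exchanger of ADP and ATP, had 76.2% to 89.1% and the histone gene H2BC15 had 78.8% to 87.0%. The conditions overlapped in the share of all these genes except RPS25. The transcripts of a gene share most of their bases, so these shares are estimates that divide common reads by the model of the quantification.

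The D391N effect on single transcripts was then tested with limma over all 54671 transcripts that averaged 1 RPKM or more. No NMD-annotated transcript passed an adjusted p of 0.05 (0 of 4210, where 0.0604% of all tested transcripts passed). At an unadjusted p under 0.05 there were 857 (20.4%) against 17.6% of all tested. Of these, 424 were higher in D391N and 433 lower, beside 6.86% and 10.7% of all tested. The 3 values of each condition did not overlap in 513 transcripts that were higher in D391N and 542 that were lower, together 25.1%, against 25.8% of all tested (10.1% higher and 15.6% lower). The share without overlap is near the background when both directions are pooled. Its split between higher and lower was more even than among all tested. In bulk RNA, fewer cells with a transcript and less of it per cell cannot be told apart. In the fit without D391N replicate 1, 492 of the 4210 passed beside 9.07% of all tested. These were 270 higher and 222 lower transcripts, where 3.84% and 5.23% of all tested passed.

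The distribution was centred near 0. The median log2 fold change of the 4210 transcripts was 0.0069, against -0.06 for the coding transcripts of the same genes and -0.07 for all tested transcripts. Spread differed more than the centre: 30.5% of the NMD-annotated transcripts had means that differed over 2-fold in either direction, against 26.8% of the coding transcripts and 24.0% of all tested. They are also shorter than the coding ones. In the length class from 500 nt to below 1000 nt the share over 2-fold was 35.0% for 1941 NMD-annotated and 36.2% for 2356 coding transcripts, and at 2000 nt or more it was 21.4% and 17.6%. Transcripts with a stop 50 to 99 nt before the last junction had a median log2 fold change of -0.11 (481 transcripts), and those with 1000 nt or more had 0.07 (654), with median levels of 3.30 and 3.26 RPKM. The distance classes between these had medians of -0.010, 0.028 and -0.0026, without a steady trend. Median length was 664 nt in the first class and 2989 nt in the last, and the part of length was not tested.

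Few of the 2926 genes differed as a whole, so most transcripts, past 2-fold or not, lie in genes whose sum did not. Of the 1284 transcripts past 2-fold, 1208 (94.1%) belong to genes whose summed level stayed within 2-fold, and the same held for 79 of 87 transcripts past 8-fold. As a sum, 92 of the 2926 genes (3.14%) differed over 2-fold, so a high share within 2-fold is not particular to these transcripts. The same share was not computed for coding transcripts. Within 2651 genes that have both classes, the summed NMD-annotated transcripts had a median log2 fold change of 0.05 and the coding transcripts one of -0.0023, and the median difference was 0.07. The NMD-annotated sum differed over 2-fold in 656 of these genes and the coding sum in 245. The coding sums pool more transcripts and are mostly the larger ones, and the part of this in the difference was not tested. Across these genes Pearson's r between both log2 fold changes was 0.112, as a description over points that share the same 6 libraries. The NMD-annotated sum was the larger of both in 714 genes (26.9%).

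**Figure D3:**
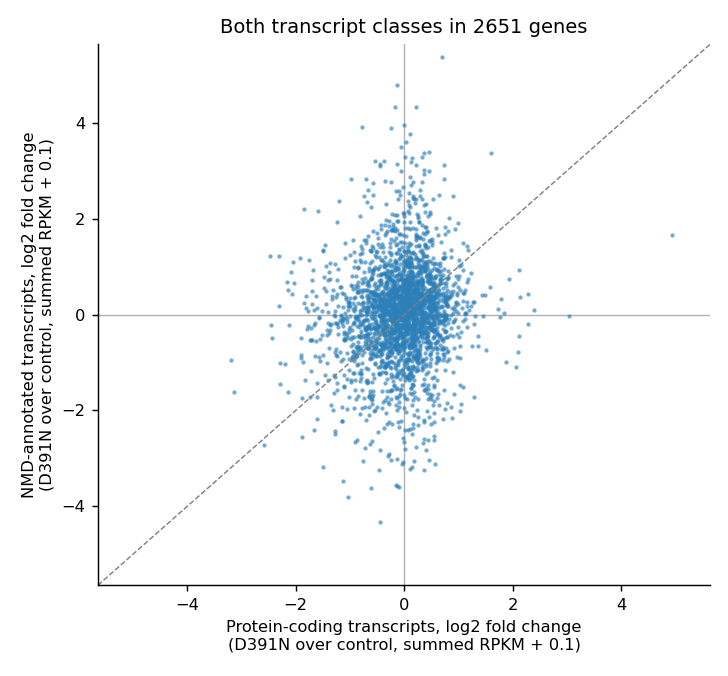
Log2 fold change of the summed NMD-annotated transcripts (vertical) against that of the summed coding transcripts (horizontal) in 2651 genes, D391N over control; each point is a gene and the dashed line marks equal change. The cloud is taller than wide, as 656 genes lie past 2-fold on the vertical axis and 245 on the horizontal, where the sums pool more transcripts. The point far to the right is ACTB, whose main listed transcript has no biotype and is in neither sum.

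In 24 genes both classes differed over 2-fold in opposite directions, with the NMD-annotated transcripts higher in D391N in 18 and lower in 6, and in 48 genes they differed over 2-fold in the same direction. A pair of these 24 is given here, chosen after the values were seen. For NDUFA12, an accessory subunit of respiratory complex I, the NMD-annotated transcript was at 24.2, 23.2 and 27.0 RPKM in D391N and 5.14, 10.97 and 16.4 RPKM in the controls, while its 3 coding transcripts summed to 54.8, 17.1 and 32.4 RPKM against 112, 103 and 59.7 RPKM. For PLK1, a kinase of mitosis, the values were 3.48, 15.9 and 8.50 RPKM against 3.32, 5.41 and 2.66 RPKM, and 51.2, 14.5 and 36.3 RPKM against 78.6, 75.1 and 79.0 RPKM. The NDUFA12 conditions did not overlap in either class, and those of PLK1 overlapped for the NMD-annotated form.

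Tested as a share of the gene sum, again none of the 4173 NMD-annotated transcripts in the fit passed (limma, smallest adjusted p = 0.0754, where 0.00831% of 48131 transcripts passed). There were 724 at an unadjusted p under 0.05, 17.3% against 15.3% of all tested. The shares of the conditions did not overlap in 470 that were higher and 504 that were lower, against backgrounds of 10.1% and 12.8% (together 23.0%). Without D391N replicate 1, 335 passed, 164 higher and 171 lower, beside 6.16% of all tested. In 665 transcripts the conditions were apart in level and in share in the same direction, as in 14.3% of all tested.

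EEF1B2, which encodes the beta subunit of translation elongation factor eEF1, had a larger share in its NMD-annotated form in D391N. The transcript ENST00000455150, whose stop is shown above, was at 199.02, 456 and 311 RPKM in D391N and 45.8, 28.9 and 20.5 RPKM in the controls. The log2 fold change was 3.34 ± 0.43 (limma adjusted p = 0.0675, and 0.0101 without D391N replicate 1), and the lowest D391N value was above the highest control value. The main coding transcript was at 349, 259 and 328 RPKM in D391N and 409.9, 367 and 342 RPKM in the controls, with 1 D391N library within the control range. The share of the NMD-annotated form was 30.6%, 54.0% and 39.4% against 7.75%, 5.15% and 3.91% (limma adjusted p = 0.0920). Another NMD-annotated EEF1B2 transcript, ENST00000429769, was at 24.7, 40.9 and 24.9 RPKM against 8.70, 10.5 and 13.01 RPKM, again without overlap.

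RPS15A, of the small ribosomal subunit, had a smaller share in its NMD-annotated form in D391N. That NMD-annotated transcript was at 206, 109.9 and 103 RPKM in D391N and 482, 903 and 667 RPKM in the controls (log2 fold change -2.32 ± 0.39, limma adjusted p = 0.0939, and 0.0133 without D391N replicate 1). The coding transcript ENST00000563390 was at 1468, 2098 and 1721 RPKM in D391N and 1144, 978 and 1067 RPKM in the controls (log2 fold change 0.72 ± 0.32, limma adjusted p = 0.299). Neither form overlapped between the conditions. The share of the NMD-annotated form was 12.01%, 4.84% and 5.55% against 28.9%, 47.0% and 37.5%, while the gene sum had a log2 fold change of 0.12.

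**Figure D4:**
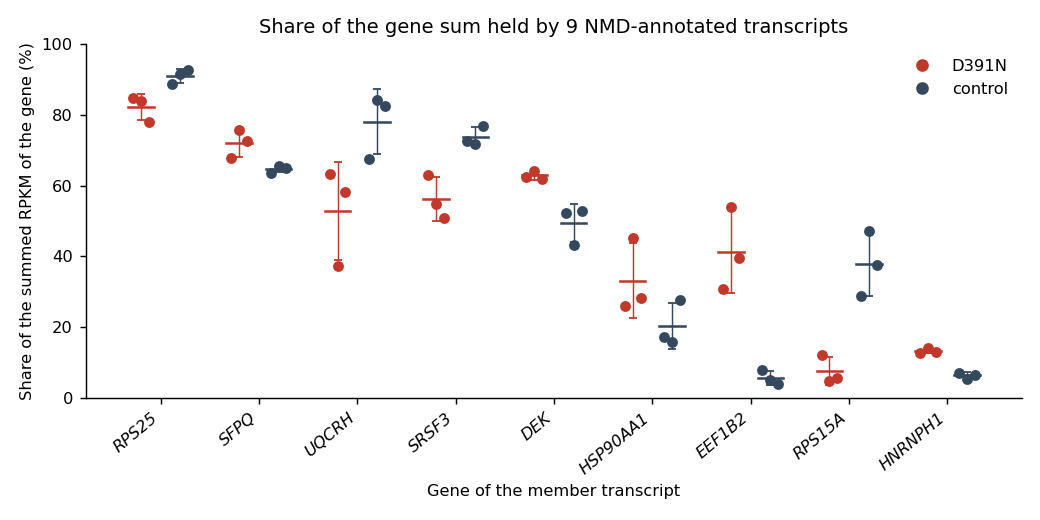
Share of the summed RPKM of the gene held by 9 NMD-annotated transcripts, in percent, ordered by mean; points are libraries (D391N red, control dark), and lines and bars give the mean and SD of 3. The D391N shares of EEF1B2, DEK, SFPQ and HNRNPH1 lie above all control shares, and those of RPS25, UQCRH, SRSF3 and RPS15A lie below all of them, and those of HSP90AA1 overlap.

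Apart from EEF1B2, the transcripts with the smallest p for a higher level were under 2 RPKM in every control library. CAV1, the coat protein of caveolae, was the nearest to the threshold: its NMD-annotated transcript was at 7.61, 7.78 and 9.22 RPKM in D391N and 1.22, 1.27 and 1.71 RPKM in the controls (log2 fold change 2.48 ± 0.26, limma adjusted p = 0.0501, and 0.0124 without D391N replicate 1). The D391N values lay well above the control values, whereas the 2 most abundant coding transcripts of CAV1 overlapped between the conditions. INPPL1, the phosphoinositide phosphatase SHIP2, was at 15.7, 37.9 and 14.3 RPKM against 0.814, 1.82 and 1.31 RPKM, and this transcript held 39.1%, 67.5% and 51.9% of the gene against 2.92%, 5.97% and 4.01%. Each control library held under 3 reads of it by the derived read counts, so no fold is given. The full coding transcript of INPPL1 was at 3.96, 2.73 and 2.86 RPKM against 5.30, 5.81 and 5.40 RPKM.

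Further members of this kind were supported by few reads in the controls. ARHGAP17, a GTPase-activating protein, was at 6.04, 14.4 and 7.47 RPKM against 0.844, 0.633 and 0.959 RPKM, at least 6.77-fold higher. TTC27, a protein with tetratricopeptide repeats, was at 3.96, 6.54 and 3.31 RPKM against 0.227, 0.521 and 0.379 RPKM, at least 7.63-fold higher. TRIT1, a tRNA-modifying enzyme, was at 2.24, 5.95 and 4.58 RPKM against 0.363, 0.442 and 0.673 RPKM, at least 7.97-fold higher. The floor behind these bounds is the level of 3 reads in each library, or the listed value where that is higher. NECAP2, an adaptor of clathrin-mediated endocytosis, was at 2.61, 2.63 and 1.94 RPKM against 0.216, 0.237 and 0.293 RPKM, but rests on at most 4.29 reads and gives no bound. None of these values overlapped between the conditions. Without D391N replicate 1, the limma adjusted p was 0.0143 for INPPL1, 0.0110 for ARHGAP17, 0.0208 for TTC27, 0.0145 for TRIT1 and 0.0324 for NECAP2.

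On the other side, the members with the smallest p held under 3 reads in each D391N library. SMAD4, a mediator of TGF-beta signalling, was at 0.363, 0.0637 and 0.344 RPKM in D391N and 6.50, 3.52 and 8.70 RPKM in the controls, at least 8.59-fold lower. JMJD8, a protein with a Jumonji domain, was at 0.434, 0.146 and 0.372 RPKM against 3.37, 7.90 and 8.62 RPKM, at least 9.05-fold lower. In both genes the summed level stayed closer, with log2 fold changes of 0.23 and -0.93. ATE1, the arginyl-tRNA-protein transferase, was at 0.131, 0.120 and 0.302 RPKM against 2.67, 1.89 and 2.10 RPKM, at least 7.26-fold lower. COQ7, of ubiquinone synthesis, was at 0.460, 0.323 and 0.404 RPKM against 3.86, 3.00 and 6.18 RPKM, and the bound there was 2.20-fold. MAP1B, which binds microtubules, and PHB1, the mitochondrial scaffold protein prohibitin, were at least 1.44-fold and 1.27-fold lower. COQ7, MAP1B and PHB1 rest on at most 8.62 reads in any library, and the conditions did not overlap in any of these 6 transcripts. Their limma adjusted p without D391N replicate 1 lay between 0.0148 (JMJD8) and 0.0244 (ATE1).

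NMD-annotated transcripts of ribosomal protein genes mostly had lower values in D391N. The 41 NMD-annotated transcripts of 27 such genes had a median log2 fold change of -1.08, beside 0.0069 over all 4210, and 32 of the 41 were below 0. In 17 the D391N values all lay below the control values and in 0 above them, where 15.6% and 10.1% of all tested transcripts do so. None passed the limma threshold, and 17 had an unadjusted p under 0.05, all lower. When every value below 3 reads was raised to that level the median was -0.94, and without D391N replicate 1 it was -1.20. The members of a gene share reads, and 10 of the 41 come from RPS3 and RPS15A.

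**Figure D5:**
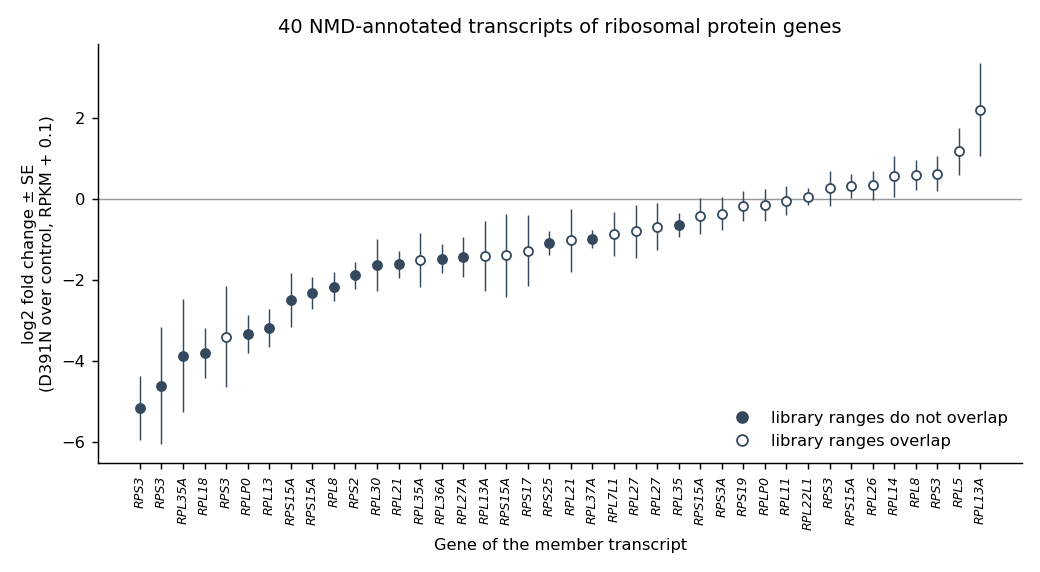
Log2 fold change of 40 of the 41 NMD-annotated transcripts of ribosomal protein genes, D391N over control, ordered by value; bars are the standard error of limma, filled points mark transcripts whose 3 D391N and 3 control values do not overlap. The 17 filled points all lie below 0, as do 31 of the 40 points.

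Summed per library, these 41 transcripts were at 2530, 1862 and 1977 RPKM in D391N and 3993, 3733 and 3410 RPKM in the controls. They held 12.2%, 8.69% and 8.96% of the sum of their genes against 15.3%, 14.2% and 12.5%, so the conditions were apart in level and in share, in share by a small margin. Taken singly, 12 of the 41 were lower in share without overlap and 4 were higher (12.8% and 10.1% of all tested). The coding transcripts of ribosomal protein genes also stood lower, at 45806, 42377 and 47564 RPKM against 56192, 56146 and 54631 RPKM, with a median log2 fold change over 360 transcripts of -0.32 (32 higher and 83 lower at an unadjusted p under 0.05, where 6.86% and 10.7% of all tested are). The sums of the 27 genes had a median log2 fold change of -0.70, and those of the 60 ribosomal protein genes without an NMD-annotated transcript in the set one of -0.47.

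Within the group, RPS25 was at 265, 191 and 307 RPKM in D391N and 484, 576 and 528 RPKM in the controls (log2 fold change -1.08 ± 0.29), while its coding transcript ENST00000527673 was at 31.4, 21.6 and 56.3 RPKM against 39.5, 31.3 and 27.9 RPKM. RPS3A was at 294, 513 and 541 RPKM against 805, 523 and 411 RPKM and RPLP0 at 109.9, 198 and 309 RPKM against 202, 203 and 224 RPKM. Both overlapped between the conditions. The ends of the group, named after the values were seen, were an RPS3 transcript (ENST00000526248) at 2.64, 0.392 and 0.760 RPKM against 45.6, 75.1 and 15.5 RPKM, which held under 3 reads in each D391N library and is only bounded as at least 2.54-fold lower, and an RPL13A transcript (ENST00000484279) at 13.8, 458 and 115 RPKM against 22.2, 15.5 and 21.6 RPKM. In the latter, D391N replicate 1 lay below the controls and the other D391N libraries far above them.

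The SR proteins, splicing factors rich in arginine and serine, are known for poison exons that hold an early stop. Their 19 NMD-annotated transcripts, from 12 genes, had a median log2 fold change of -0.07, which turned to 0.0047 with median centring and to 0.095 with quantile normalization, so no direction can be given. In 2 of the 19 the D391N values all lay below the controls and in 0 above them, against 15.6% and 10.1% of all tested. SRSF3 had the most abundant form, at 258, 206 and 235 RPKM in D391N and 436, 421 and 383 RPKM in the controls (log2 fold change -0.83 ± 0.25, limma adjusted p = 0.196). The coding SRSF3 transcript was at 97.7, 136 and 168 RPKM against 102, 105 and 68.7 RPKM. The NMD-annotated form held 62.8%, 54.8% and 50.8% of the gene in D391N and 72.6%, 71.7% and 76.9% in the controls, without overlap. Whether it holds a poison exon was not checked.

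The other SR members named by the same rule overlapped between the conditions in level. SRSF6 was at 125, 81.2 and 127 RPKM against 119, 104 and 93.7 RPKM and held 59.6% to 76.2% of its gene over the 6 libraries. SRSF1 was at 51.4, 61.6 and 23.0 RPKM against 28.8, 13.8 and 20.8 RPKM. TRA2B ranged from 12.8 to 38.003 RPKM and SRSF7 from 17.9 to 27.0 RPKM over the 6 libraries.

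The hnRNP proteins and related splicing regulators gave 44 transcripts from 21 genes, with a median log2 fold change of -0.24 that became 0.04 without D391N replicate 2. In 4 the D391N values all lay above the controls and in 12 below them, where 10.1% and 15.6% of all tested do so. The transcript ENST00000521173 of HNRNPH1, which binds G-rich RNA, was at 123, 206 and 143 RPKM in D391N and 59.4, 48.8 and 48.7 RPKM in the controls (log2 fold change 1.56 ± 0.28, limma adjusted p = 0.103, and 0.0205 without D391N replicate 1). It held 12.7%, 14.2% and 13.1% of the gene against 7.10%, 5.45% and 6.48%. Of the 6 NMD-annotated HNRNPH1 transcripts, 3 were higher and 1 lower without overlap, the latter (ENST00000504779, named after its values were seen) at 14.2, 13.05 and 22.7 RPKM against 28.6, 32.5 and 29.05 RPKM. The most abundant coding HNRNPH1 transcript was at 169, 0.946 and 55.5 RPKM against 203, 237 and 214 RPKM, and another, ENST00000519056, at 47.2, 278 and 237 RPKM against 69.1, 41.6 and 41.3 RPKM, so its coding forms differed from each other in direction.

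HNRNPA2B1 was at 50.3, 293 and 100.5 RPKM in D391N and 39.3, 47.8 and 32.6 RPKM in the controls, apart by a small margin (limma adjusted p = 0.270, and 0.0477 without D391N replicate 1). HNRNPK was at 306, 248 and 290.3 RPKM against 259.8, 295 and 264 RPKM, and its share of the gene stayed between 32.3% and 34.7% in all libraries. RBM39 was at 63.1, 75.7 and 45.1 RPKM against 54.1, 21.1 and 24.2 RPKM, and HNRNPDL ranged from 16.5 to 32.9 RPKM over both conditions. Both overlapped.

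Genes of the decay pathway itself also make NMD-annotated transcripts. The 13 in the set, from 9 of 24 listed factors, had a median log2 fold change of 0.34 (0.21 when values below 3 reads were raised to that level). MAGOHB gave more of the 13 than any other factor, and its summed level had a log2 fold change of 0.57. Without overlap, 2 were higher, both of MAGOHB, and 0 lower (10.1% and 15.6% of all tested). CASC3, a core protein of the exon junction complex, was at 48.0, 18.4 and 28.2 RPKM in D391N and 56.2, 39.8 and 58.8 RPKM in the controls. The most abundant form of MAGOHB, another core protein of the complex, was at 17.3, 24.1 and 24.4 RPKM against 21.1, 17.4 and 13.8 RPKM. SMG1, the kinase of UPF1, ranged from 8.93 to 17.8 RPKM, its partner SMG9 from 3.35 to 6.44 RPKM and the cap-binding protein NCBP1 from 3.32 to 8.15 RPKM. All of these named forms overlapped between the conditions.

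The listed exoribonucleases gave 7 NMD-annotated transcripts from 5 genes, which are DIS3, DIS3L, XRN1, ERI1 and EXOSC10. Their median log2 fold change was 0.43, and 1 did not overlap between the conditions, where 25.8% of all tested do not overlap. That was the transcript ENST00000524795 of DIS3L, the cytoplasmic paralogue of DIS3L2 in the exosome, at 4.18, 11.5 and 5.61 RPKM in D391N and 2.66, 2.49 and 2.24 RPKM in the controls (log2 fold change 1.36 ± 0.40, limma adjusted p = 0.189, and 0.0475 without D391N replicate 1). Another NMD-annotated DIS3L transcript, ENST00000530537, also named after its values were seen, was at 5.96, 0.196 and 0.462 RPKM against 2.47, 4.37 and 2.81 RPKM, with overlap and a log2 fold change of -1.69. The coding DIS3L transcript ENST00000319194 was at 3.59, 2.21 and 4.03 RPKM against 7.47, 6.43 and 5.03 RPKM. DIS3, the nuclear paralogue, was at 17.4, 24.04 and 25.015 RPKM against 18.8, 16.998 and 13.3 RPKM, and its NMD-annotated form held 44.6% to 50.8% of the gene in all libraries. XRN1, the cytoplasmic 5′ to 3′ exonuclease, ranged from 12.4 to 25.2 RPKM, ERI1 from 11.2 to 16.0 RPKM and EXOSC10, of the nuclear exosome, from 1.61 to 3.49 RPKM. Of the classical coding substrates of the pathway, such as ATF4 and GADD45A, only TBL2 had NMD-annotated transcripts in the set, and the more abundant of both was at 1.61, 2.96 and 2.72 RPKM against 3.73, 4.24 and 2.003 RPKM, with overlap.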

How the data were processed

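The authors used cutadapt for trimming, Segemehl for alignment to the Ensembl transcriptome (GRCh38) and BitSeq for quantification; tool versions are not given in the sources used here. They deposited, for each library, the natural log of RPKM (posterior mean) and a posterior variance per transcript; the file has 0 columns without a sample. The authors' differential test was not repeated, since its posterior samples are not used here.

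Biotypes, exons and stop codons came from GENCODE release 44 on GRCh37, matched by transcript ID without version (90.2% found; for 23 members the gene ID differs from the table's). Values were turned into RPKM. Reads per transcript were derived from the posterior variance, and a value under 3 reads was taken as below the floor. limma 3.58.1 (R 4.3.3, empirical Bayes with trend, two-sided, Benjamini-Hochberg over all tested transcripts) was fitted on log2(RPKM + 0.1) of 54671 transcripts averaging 1 RPKM or more, and on log2 of the share of the gene sum; fold changes on this scale understate those of low transcripts. The DIS3L2 sum was tested by exact permutation. The labels do not say whether the libraries of a condition came from separate cultures, so p-values cover the spread between these libraries only, and fewer reads limit the low members. On simulated data with 200 of 54671 levels shifted by 3 log2 units, 46.5% were called with 10 false calls. For shares (48131) it was 53% and 6. The simulation gave both conditions the same independent spread, whereas the D391N libraries differed more among themselves, so its rates may not hold for these data.

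The members and gene lists were chosen with earlier results of these data known. Named transcripts are 49: the 5 with the smallest p for level in each direction, the 10 most abundant, the 5 with the highest share, the 5 with the smallest p for share, and up to 5 per gene list. Of these, 1 is not reported here. Same-numbered libraries did not deviate together (r = 0.0867, 0.0550 and -0.111), so the numbers do not pair them. Alternatives were another pseudocount, filters, scalings, a replicate block, limma without trend, another gene sum and leaving out each library. Python 3.11.15 with pandas 2.3.3 and scipy 1.17.1 was used.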

Additional observations from a re-analysis of the deposited data

How the results depend on the processing

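The number of NMD-annotated transcripts past the limma threshold, 0 in level and 0 in share, became 7 in level and 1 in share with a pseudocount of 1 RPKM, and 1 in level with quantile normalization or with limma without trend. Leaving out each library in turn gave 0 to 492 in level and 0 to 335 in share; the upper ends are without D391N replicate 1, and 1 passed in level without D391N replicate 2. The cause was not tested. With the replicate number as a block, 0 passed in level and 0 in share; the libraries share only a number. The median log2 fold change of 0.0069 became 0.15 among those averaging 5 RPKM or more, 0.078 after centring on the median and 0.10 after quantile normalization, and the median share of 11.9% became 15.5% with a pseudocount of 1 RPKM, 21.6% at 5 RPKM or more, 17.2% with at least 10 reads and 17.9% of the sum over NMD-annotated and coding transcripts. Of the 49 named transcripts, 20 passed without D391N replicate 1 and 5 with a pseudocount of 1 RPKM. The log2 fold change turned sign with quantile normalization for RPS3A (0.27) and RPLP0 (0.23). Leaving out single libraries, it ranged across 0 for SRSF6 (-0.062 to 0.26), TRA2B (-0.069 to 0.67), HNRNPK (-0.022 to 0.13), HNRNPDL (-0.075 to 0.43), RPLP0 (-0.50 to 0.24) and EXOSC10 (-0.45 to 0.068), so none of these has a direction. Low members are limited by depth, as 1943 hold fewer than 3 reads in at least 1 library.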
